A study of Mus musculus with 15 samples.

Results

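The protein components of the cytosolic ribosome were examined in the hearts of mice with chronic kidney disease (CKD) that did or did not carry the gene for renalase (RNLS), a flavoprotein made mainly by the kidney. The genes were selected on their symbol and on a minimum of their own counts, as every symbol with the standard ribosomal protein form (Rpl or Rps followed by a number, with the usual letters for paralogs and isoforms, plus Rplp0, Rplp1, Rplp2 and Rpsa) and with 10 or more counts in 3 or more libraries. Of 84 matching symbols, 83 met this minimum, among 17147 genes with at least 1 count. The counts were used for this minimum alone, whichever group they came from. At its edge, Rpl32l was kept with 2 to 11 counts per library and Rpl39l was left out with 0 to 8. The 83 genes comprised 51 of the large subunit and 32 of the small subunit, and 6 of them carry the symbol of a paralog (Rpl3l, Rpl22l1, Rpl7l1, Rps27l, Rpl6l and Rpl32l). Rpl32l fell under the filter on low counts, so that 82 members were tested among 13021 genes.

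Heart RNA of male C57BL/6J mice was sequenced 18 weeks post-surgery, with 3 mice in each of 5 groups. WTSHAM mice were wild type and had sham surgery. WTCKD and WTCKD + RNLS mice were wild type and had 5/6 nephrectomy, which removes most of the kidney mass, followed by the vector or by AAV9-cTnT-RNLS, an adeno-associated virus in which the cardiomyocyte promoter of troponin T drives RNLS. KOCKD and KOCKD + RNLS mice were rnls-/- and had the same surgery with the vector or with the virus. The knockout was made with TALENs in Rnls, and the mice were 6 to 8 weeks old at the start. Knockout mice with sham surgery were not analysed here, so every knockout library also carries CKD, and RNLS itself was not analysed here. Each library held 10480788 to 13424078 counted reads. No pair of libraries in a group agreed within sampling noise. Since the RNA came from whole heart tissue, fewer cells of a type and less RNA per cell cannot be told apart in any value below.

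The cytosolic ribosome joins a small subunit, which reads the mRNA, and a large subunit, which forms peptide bonds. Its proteins are made in matched amounts, and most of their mRNAs start with a C followed by a run of pyrimidines, the terminal oligopyrimidine (TOP) tract, through which mTORC1 and the RNA-binding protein LARP1 control their translation. In heart and skeletal muscle part of the pool of Rpl3, which lies near the peptidyl transferase centre, is replaced by its muscle paralog Rpl3l.

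The start regions of genes that the results turn on are shown, with and without a tract, because the tract is the feature for which ribosomal protein mRNAs are known. RefSeq promoters of the GRCm38.p6 build were matched by symbol to 62 of the 83 members. Each window below runs 5′ to 3′ on the transcribed strand from 15 bases before the annotated start to 15 bases from it, and the capitals mark the longest run of a C followed by at least 4 bases that are each C or T, beginning within 10 bases either side of the start. The windows of Rps18 and Rpl39 each hold a shorter run of this kind that begins before the start and is left in lower case.
Rps18, chr17:33955651-33955680, minus strand: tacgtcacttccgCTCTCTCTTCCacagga
Rpl39, chrX:37085208-37085237, minus strand: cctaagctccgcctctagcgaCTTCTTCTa
Rpl34, chr3:130730323-130730352, minus strand: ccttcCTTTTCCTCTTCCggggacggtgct
Rpl34, other start, chr3:130730384-130730413, minus strand: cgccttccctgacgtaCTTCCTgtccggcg
Rps15a, chr7:118116133-118116162, minus strand: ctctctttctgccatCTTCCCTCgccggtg
Rps6, chr4:86857353-86857382, minus strand: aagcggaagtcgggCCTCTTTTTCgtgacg
Rpl22l1, chr3:28805493-28805522, plus strand: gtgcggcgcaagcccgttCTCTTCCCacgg
Rpl3l, chr17:24727811-24727840, plus strand: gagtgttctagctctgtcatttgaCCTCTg
Rpl3l, other start, chr17:24732670-24732699, plus strand: gtcatcaacagctacagtgccccaaatgtc
Rpl5, chr5:107900513-107900542, plus strand: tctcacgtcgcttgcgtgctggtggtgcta
Rpl11, chr4:136053379-136053408, minus strand: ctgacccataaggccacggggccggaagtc
Such a run was found in 38 of the 62 members (61.3%) and in 9297 of 27025 genes with a promoter in the reference (34.4%). Rpl5, Rpl11 and the other start of Rpl3l had none in these windows, and 24 of the 62 members had none at any annotated start. On the opposite strand the same search found a run in 15 of the 62 members (24.2%) and in 38.5% of all genes with a promoter.

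Levels of different genes were compared as FPKM, the authors' values, which are scaled to gene length and to the reads of the library. The mean FPKM over the 15 libraries ranged from 0.952 for Rpl32l to 704 for Rpl41, with a median of 222 and quartiles of 132 and 359, and 72 of 83 members had a mean of 100 or more. The highest were Rpl41, whose protein is among the smallest known, at 704 ± 84.4 (SD, n = 15), Rplp1 of the ribosomal stalk at 637 ± 91.4 and Rps15 of the small subunit head at 617 ± 73.6. These 3 neighbours in the order lay within their spread. The lowest after Rpl32l were the paralogs Rps27l at 17.5 ± 2.82 and Rpl7l1 at 18.5 ± 2.33, which also lay within their spread. Of the 5 tested paralogs 4 had a lower mean FPKM than their partners. Rps27 had a mean FPKM of 335 and Rpl7 of 412, and the means were 33.4 for Rpl6l against 189 for Rpl6 and 20.1 for Rpl22l1 against 55.8 for Rpl22. Rpl3l was the exception, with 159 ± 13.5 against 120 ± 15.05 for Rpl3. Members were short genes. Their implied length, which is the counts divided by FPKM and library total and is therefore the length the authors' FPKM rests on, had a median of 821 bases and ranged from 346 for Rps27 to 5136 for Rps15a, against a median of 3631 over all tested genes.

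Members took 1.54% to 2.15% of the counted reads of a library, lowest in KOCKD + RNLS and highest in KOCKD hearts. The share was 1.69% ± 0.0803 (SD, n = 3) in WTSHAM, 1.83% ± 0.0977 in WTCKD, 1.77% ± 0.231 in WTCKD + RNLS, 2.03% ± 0.134 in KOCKD and 1.56% ± 0.0120 in KOCKD + RNLS. The 3 KOCKD libraries held 1.89%, 2.06% and 2.15%, and the 3 KOCKD + RNLS libraries 1.57%, 1.56% and 1.54%, so that these groups did not overlap. Every WTSHAM and WTCKD library lay between the KOCKD + RNLS libraries and KOCKD replicate 3. In WTCKD + RNLS the libraries held 1.68%, 2.04% and 1.60%, with replicate 2 at the level of KOCKD hearts and the other two near the level of WTSHAM hearts. Large subunit genes took 0.921% to 1.27% and small subunit genes 0.624% to 0.885%, with the same 2 groups at the ends.

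**Figure D1:**
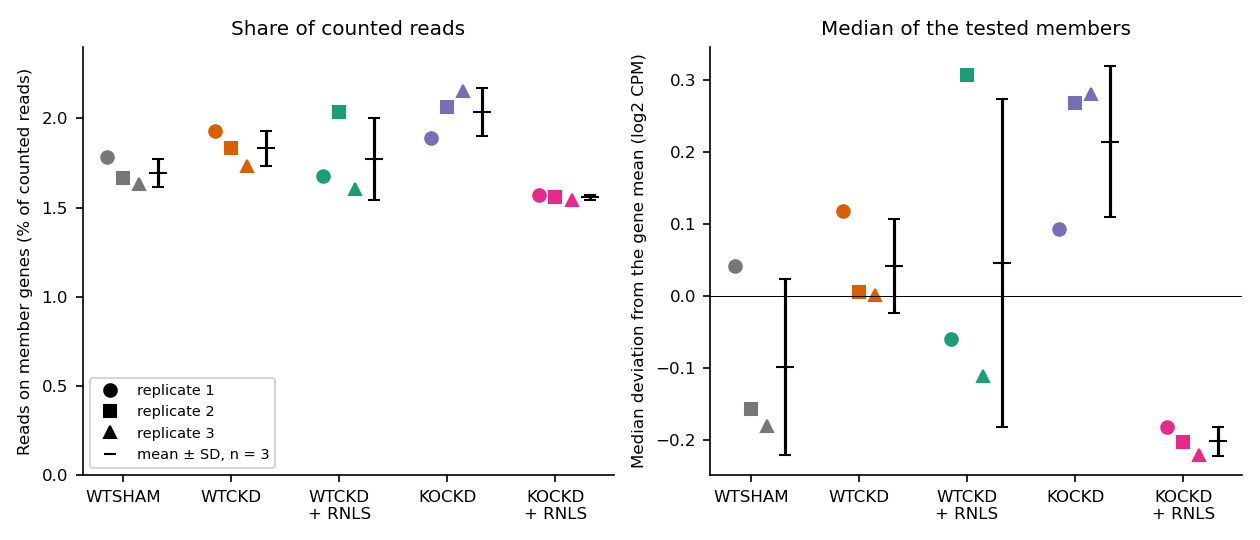
Share of counted reads on the 83 members (left, percent) and median over the 82 tested members of log2 CPM minus the gene's mean over all libraries (right), for each library by group, with mean ± SD of 3 mice. KOCKD libraries sit at 1.89% to 2.15% and KOCKD + RNLS libraries at 1.54% to 1.57%, while WTCKD + RNLS replicate 2 stands at 2.04%, apart from the other two of its group.

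RNLS overexpression in knockout CKD hearts was accompanied by lower mRNA of most of the set. Compared to KOCKD, 66 of 82 tested members were lower in KOCKD + RNLS and none was higher at an adjusted p below 0.05 in edgeR's quasi-likelihood test, where 16.1% of all tested genes were called and 7.04% were called lower. The log2 fold changes of the members had a median of -0.43 and quartiles of -0.50 and -0.34, against a median of -0.01 over all tested genes. Of the 82 members 81 were below 0 (50.9% of all tested genes), and 79 were at an unadjusted p below 0.05, as were 31.6% of all tested genes in either direction. In CPM, which are counts scaled to a common library size, all 3 KOCKD + RNLS libraries lay below all 3 KOCKD libraries for 81 of 82 members, which was so for 20% of all tested genes. DESeq2 called 74 members lower (8.08% of all tested genes), and the study's own threshold, a fold change with an unadjusted p, called 70 (10.1%). The small subunit had 28 of 32 members called lower with a median of -0.46, and the large subunit 38 of 50 with a median of -0.41. Each library left out lowered the number called, to 27 without KOCKD replicate 2, 32 without KOCKD replicate 3, 35, 28 and 32 without KOCKD + RNLS replicates 1, 2 and 3, and 64 without KOCKD replicate 1, with medians from -0.50 to -0.38, and 24 of the 66 stayed called in all 6 of these fits. The share of all tested genes called in these fits is not given here. Calls lost because fewer mice were fitted therefore cannot be told apart from calls that rested on 1 mouse.

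The largest fall was that of Rps18, a protein of the small subunit head. Its level was 204, 219 and 217 CPM in KOCKD and 97.8, 93.0 and 161 CPM in KOCKD + RNLS, with a log2 fold change of -0.86 ± 0.16 (SE, adjusted p = 0.0032). The first 2 KOCKD + RNLS libraries stood far below all others, and replicate 3, at 161 CPM, was also below the lowest wild-type library at 175 CPM. Rpl39, a small protein lining the exit tunnel for the nascent chain, was at 54.6, 62.99 and 68.4 CPM in KOCKD and at 35.8, 36.6 and 37.1 CPM in KOCKD + RNLS, a log2 fold change of -0.76 ± 0.13 (adjusted p = 0.00233). Its KOCKD + RNLS libraries were also below the lowest wild-type library, which held 41.6 CPM. Rpl34 of the large subunit was at 57.7, 83.9 and 89.8 CPM in KOCKD and at 48.1, 48.5 and 44.7 CPM in KOCKD + RNLS (-0.71 ± 0.15, adjusted p = 0.0056). KOCKD replicate 1 was the lowest of the libraries outside KOCKD + RNLS, and the other two KOCKD libraries were the highest of all. Rps20, which lies in the small subunit head beside the mRNA path, was at 131, 152 and 167 CPM in KOCKD and at 96.9, 97.7 and 93.9 CPM in KOCKD + RNLS (-0.64 ± 0.12, adjusted p = 0.00308). These 4 genes stayed called in all 6 fits that leave out a library of the comparison. Rps15a, named after its values were seen because its gene is the longest of the set, followed at -0.63 ± 0.11 (adjusted p = 0.00254), with 166, 201 and 210 CPM against 126, 126 and 120 CPM.

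The members of the stalk, which recruits translation factors to the large subunit, did not all pass the test. Rplp1 fell by 0.55 on the log2 scale, from 329, 362 and 382 CPM to 246, 250 and 238 CPM (adjusted p = 0.00437). Rplp2 fell by 0.52 (adjusted p = 0.00393). Rplp0, the anchor of the stalk and a common reference gene in quantitative PCR, had a log2 fold change of -0.22 ± 0.10 (adjusted p = 0.162), with 757, 841 and 791 CPM in KOCKD and 696, 674 and 683 CPM in KOCKD + RNLS. Its groups did not overlap, but its change was the smallest in size among the 81 members below 0. Rpl5 and Rpl11, which bind the 5S rRNA and can hold the p53 regulator MDM2, had log2 fold changes of -0.33 (adjusted p = 0.0186) and -0.42 (adjusted p = 0.0157).

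Among the proteins around the mRNA channel and the decoding site, Rps3 fell by 0.40 (adjusted p = 0.0201) and Rps14 by 0.44 (adjusted p = 0.00472). Rps6, the classical substrate of S6 kinase, was at 319, 369 and 358 CPM in KOCKD and 291, 284 and 291 CPM in KOCKD + RNLS, with a log2 fold change of -0.28 ± 0.10 that did not pass the test (adjusted p = 0.0647). Rpsa, the laminin receptor precursor, behaved alike at -0.34 ± 0.11 (adjusted p = 0.053). Rps19, a gene mutated in Diamond-Blackfan anaemia, fell by 0.58 (adjusted p = 0.00701), and Rps27a, which is made as a fusion with ubiquitin, by 0.55 (adjusted p = 0.0278). Rpl10, needed for subunit joining, fell by 0.50 (adjusted p = 0.00254), with 241, 262 and 265 CPM against 187, 178 and 178 CPM. Rpl13a, whose protein acts in the interferon-gamma silencing pathway, fell by 0.45 (adjusted p = 0.0196) and Rpl24 by 0.44 (adjusted p = 0.0201). Rpl23a, at the tunnel exit, fell by 0.49 (adjusted p = 0.013), and Rpl38, linked to the translation of Hox mRNAs, by 0.42 (adjusted p = 0.0448). The 2 most abundant members besides Rplp1 had values of -0.34 ± 0.12 (Rpl41, adjusted p = 0.0718) and -0.38 ± 0.12 (Rps15, adjusted p = 0.0379). Of these genes, Rplp1, Rplp2, Rps14, Rps19 and Rpl10 stayed called whichever library was left out, and each of the others lost its call in at least 1 such fit or had none. Those fits made no adjustment for gene length. With the gene length offsets described below, none of Rplp1, Rplp2, Rps14, Rps19 and Rpl10 was called.

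**Figure D2:**
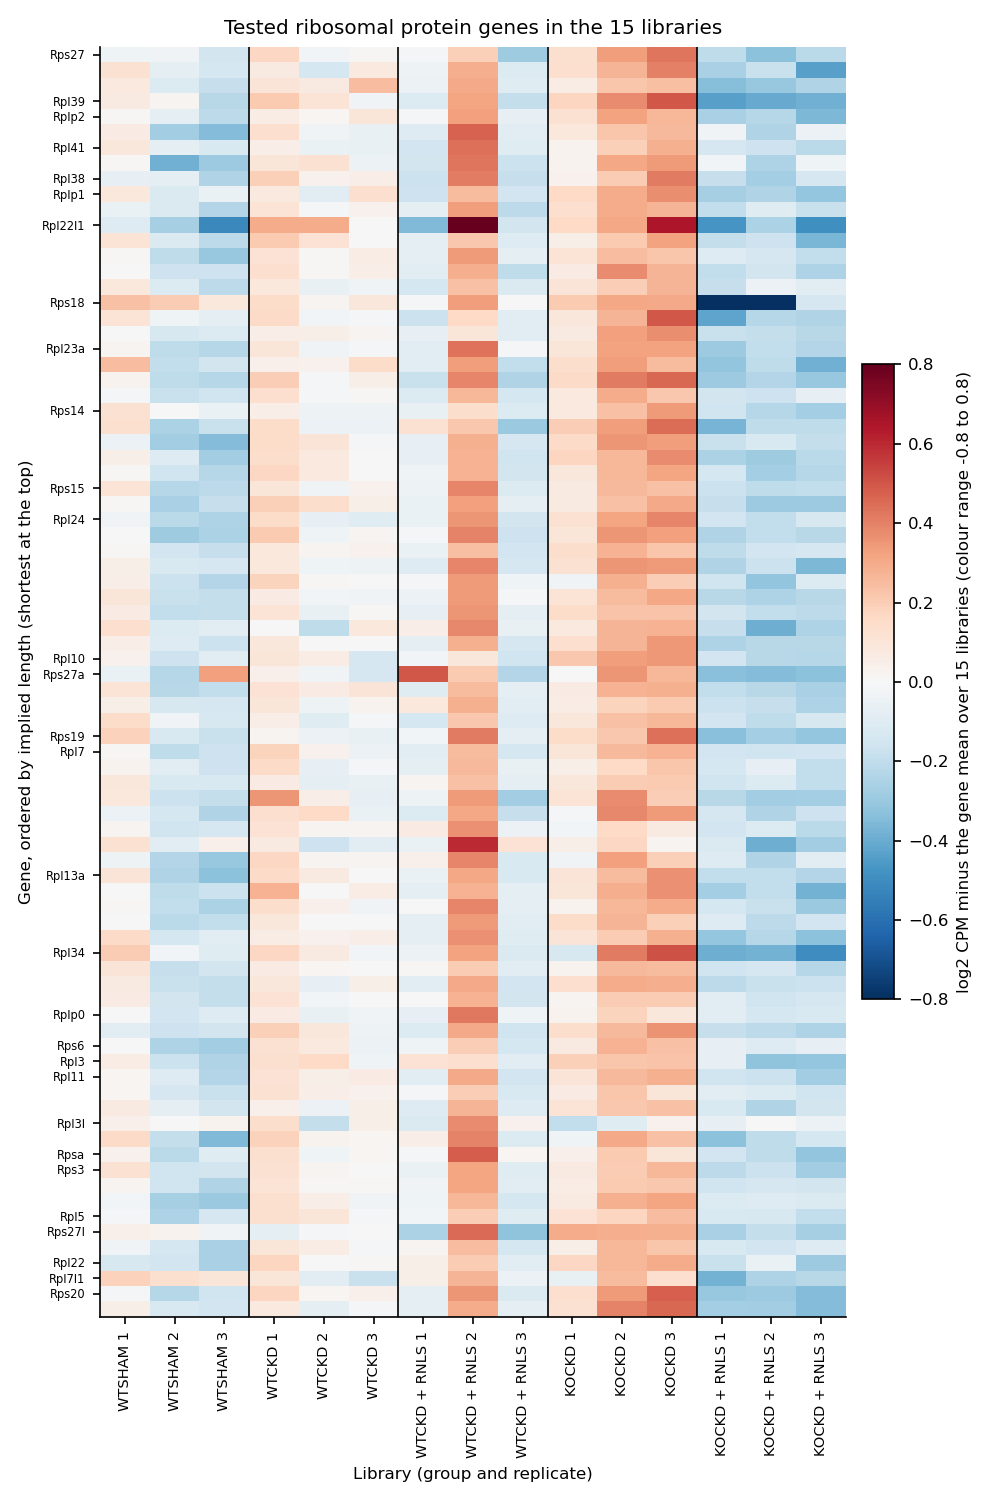
Log2 CPM of each of the 82 tested members minus its mean over the 15 libraries (colour, from -0.8 to 0.8), with genes in rows ordered by implied length (those named by rule are labelled) and libraries in columns by group. The 3 KOCKD + RNLS columns are low in nearly every row, KOCKD replicates 2 and 3 and WTCKD + RNLS replicate 2 are high, and Rps18 stands out in KOCKD + RNLS replicates 1 and 2 and Rpl22l1 in WTCKD + RNLS replicate 2.

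The paralogs did not move as one. Rpl3l was the only tested member not below 0 in the KOCKD + RNLS to KOCKD comparison, with a log2 fold change of 0.05 ± 0.11 (adjusted p = 0.803), and its value was -0.01 without KOCKD replicate 1. Its level was 253, 273 and 298 CPM in KOCKD and 278, 292 and 282 CPM in KOCKD + RNLS. Its partner Rpl3 fell by 0.44 ± 0.10 (adjusted p = 0.00811), from 208, 212 and 213 CPM to 174, 146 and 147 CPM, and this call was lost without KOCKD + RNLS replicate 2 (adjusted p = 0.0514). The ratio of Rpl3l to Rpl3 in FPKM was 1.02, 1.07 and 1.17 in KOCKD and 1.34, 1.67 and 1.61 in KOCKD + RNLS. These ratios did not overlap, and the exact two-sided permutation test gave p = 0.1, the smallest that 3 against 3 allows (adjusted p = 0.333 over 20 tests of 5 pairs in 4 comparisons). In the other groups the ratio was 1.32 to 1.62 in WTSHAM, 1.05 to 1.41 in WTCKD and 1.14 to 1.58 in WTCKD + RNLS, overlapping in every other comparison.

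**Figure D3:**
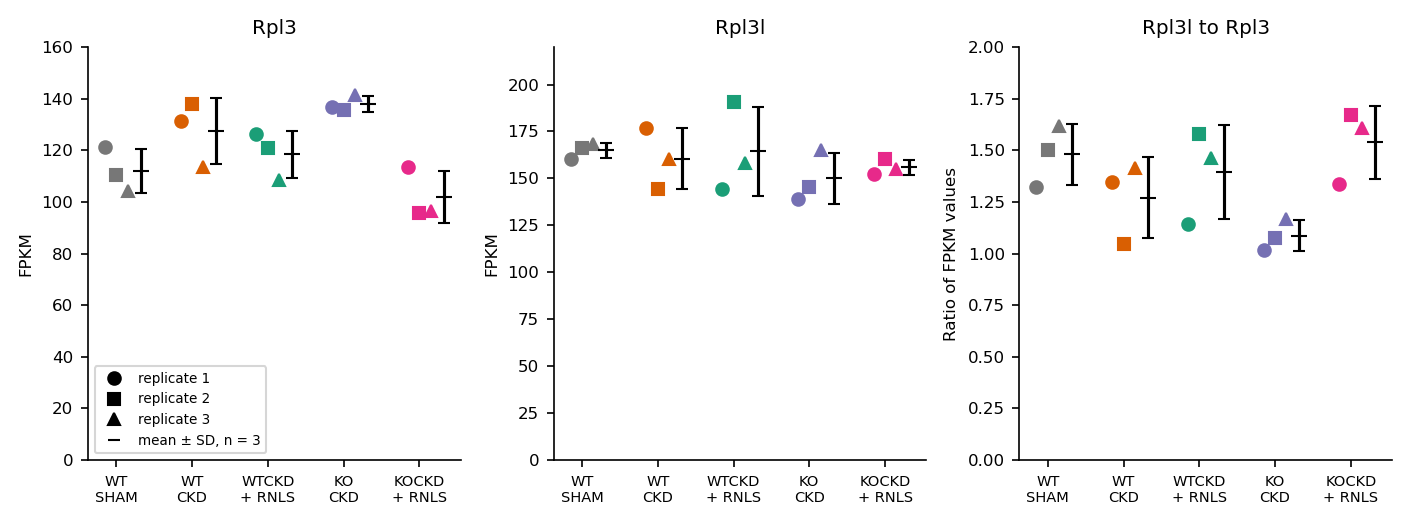
FPKM of Rpl3 and of its muscle paralog Rpl3l and the ratio of both in each library, with mean ± SD of 3 mice per group. Rpl3 is lower in KOCKD + RNLS than in KOCKD libraries while Rpl3l overlaps, and the ratio is 1.02 to 1.17 in KOCKD and 1.34 to 1.67 in KOCKD + RNLS.

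Rpl22l1, the paralog of the RNA-binding protein Rpl22, had the second largest fall of the set, from 10.6, 11.7 and 14.8 CPM to 6.83, 7.94 and 6.75 CPM (log2 fold change -0.79 ± 0.26, adjusted p = 0.0467). It was also the member with the widest spread within groups, with 17.5 CPM in WTCKD + RNLS replicate 2 against 7.43 and 8.58 CPM in the other two, and its call was lost in each of the 6 fits without 1 library (adjusted p from 0.0555 to 0.162). Rpl22 itself fell by 0.42 ± 0.09 (adjusted p = 0.00748). The ratio of Rpl22l1 to Rpl22 was 0.349 to 0.445 in KOCKD and 0.285 to 0.305 in KOCKD + RNLS (exact two-sided permutation p = 0.1, adjusted p = 0.333). Rpl22l1 has an implied length of 489 bases and Rpl22 one of 2343 bases. The ratio was not adjusted for length, and the part that the length slope of the libraries, given below, has in it was not tested. Rps27l, a p53 target, fell by 0.52 and Rps27 by 0.55 (adjusted p = 0.0232 and 0.00461), and Rpl7l1 fell by 0.39 and Rpl7 by 0.37 (adjusted p = 0.0194 and 0.0224), with overlapping ratios for both pairs. Rpl6l, named after its values were seen, fell by 0.49 (adjusted p = 0.0316). The ratio of Rpl6l to Rpl6 was 0.174 to 0.198 in KOCKD and 0.159 to 0.161 in KOCKD + RNLS (exact two-sided permutation p = 0.1, adjusted p = 0.333). Members with near-identical copies elsewhere in the genome, of which ribosomal protein genes have many as processed pseudogenes, have uncertain counts, because how such reads were assigned is not given in the sources used here.

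Genes of like length that do not belong to the ribosome also fell in this comparison. The 3331 tested genes outside the set whose implied length lay between the 5th and 95th percentile of the members (439 to 2308 bases) had a median of -0.22 on the log2 scale, and 545 of them were called lower and 18 higher. These genes of like length were still longer than the members, with a median implied length of 1595 bases against 827 for the tested members. This limits every comparison with them below. With the length range of the members cut at their quartiles, the 21 members of the shortest class (346 to 585 bases) had a median of -0.47 and the 110 other genes one of -0.43, with 17 and 57 called lower. In the next classes the medians were -0.46 for members and -0.34 for others, then -0.39 and -0.29, and in the longest class -0.36 and -0.06. Members thus lay at the level of other genes where genes were shortest and below them where genes were longer, although the other genes of the longest class were themselves longer (median 2994 against 1861 bases).

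The slope with length differed between libraries. The slope of log2 CPM on log2 length over the genes outside the set was negative in all 3 KOCKD libraries (-0.08, -0.12 and -0.09) and positive in all 3 KOCKD + RNLS libraries (0.07, 0.09 and 0.06). It was also negative in WTCKD + RNLS replicate 2 (-0.10), the library with the high member share, whereas the other two of that group had 0.04 and 0.07. The comparison was therefore also fitted with offsets that take out, for each library, a smooth trend of log2 counts with implied length that was estimated on genes outside the set. With these gene length offsets, 5 members were called lower (Rpl39, Rpl34, Rps20, Rps15a and Rpl22) and none higher, where 2.7% of all tested genes were called lower, and the median of the members was -0.11 against -0.01 for genes of like length. In that fit 69 of 82 members were below 0. On this measure of length Rps15a had the largest change at -0.74 (adjusted p = 0.00614), followed by Rps20 at -0.63 (adjusted p = 0.00919). Rps18 was at -0.46 and missed the call (adjusted p = 0.0645), while the calls remained for Rpl34 at -0.46 (adjusted p = 0.031), Rpl22 at -0.31 (adjusted p = 0.031) and Rpl39 at -0.31 (adjusted p = 0.0302). The values of Rplp0, Rpl38, Rpl41 and Rpl3l were above 0, at 0.01, 0.02, 0.10 and 0.21, and none of these was called. By length class, the members' medians with the offsets were -0.05, -0.09, -0.11 and -0.20 from the shortest to the longest.

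The number called depended on the measure of length. With offsets on the longest coding sequence of each gene in GENCODE vM1, an alternative added after seeing the data that covers 79 tested members, 19 members were called lower and 78 of 79 were below 0, with a median of -0.22. In that fit 3.12% of the 11505 tested genes were called lower. The implied lengths of Rps15a and Rps20, 5136 and 3446 bases, are far longer than their coding sequences of 393 and 360 bases. With the coding length offsets their values were -0.37 (adjusted p = 0.00909) and -0.37 (adjusted p = 0.0132), against -0.74 and -0.63 with the gene length offsets. The lowest values in that fit were those of Rps18 at -0.64 (adjusted p = 0.0148) and Rpl24 at -0.63 (adjusted p = 0.022), and Rpl22 was not called (-0.16, adjusted p = 0.194). The coding length used for Rpl24, 3153 bases, is far longer than its implied length of 679 bases. The fit thus treated Rpl24 as a long gene, and its value and call there are uncertain. All 19 and all 5 were among the 66.

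**Figure D4:**
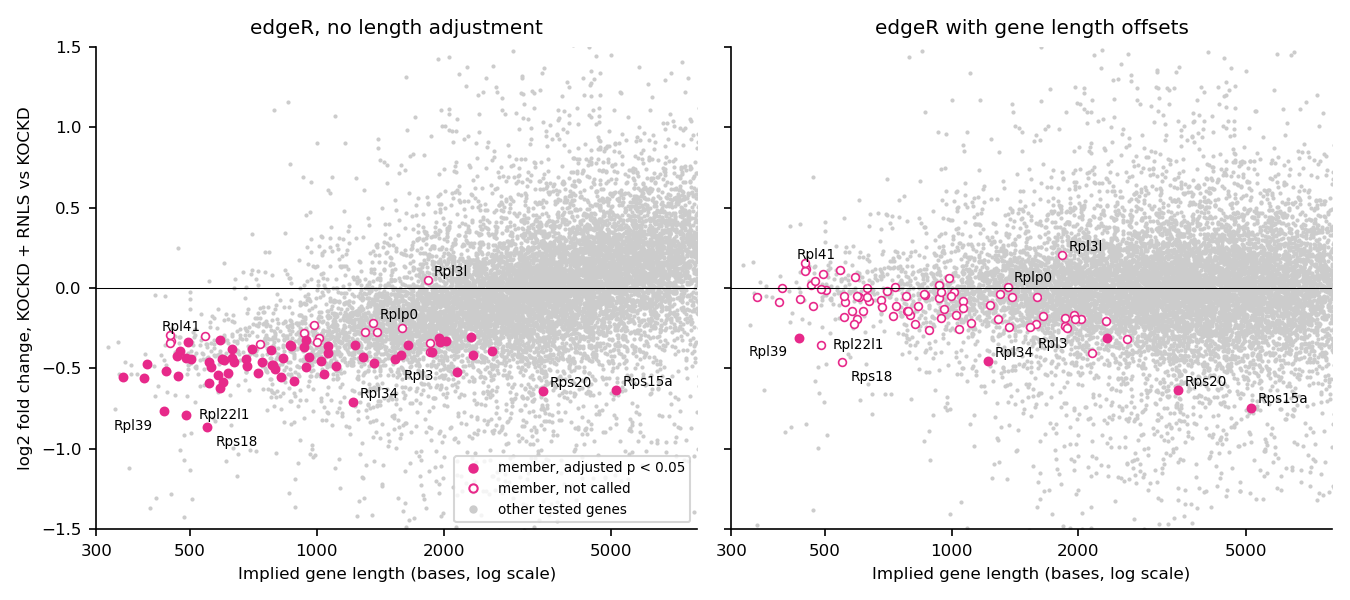
Log2 fold change in KOCKD + RNLS compared to KOCKD against implied gene length (bases, log axis) for members (filled where adjusted p is below 0.05) and all other tested genes (grey), without and with gene length offsets. Without offsets 66 members are called and the grey cloud slopes upward with length, and with offsets 5 members remain called, among them the 2 with the longest implied length. Genes beyond the axis limits are not drawn.

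The other comparisons gave no called member in edgeR without offsets. In WTCKD compared to WTSHAM, in which nephrectomy and the vector differ together from sham surgery, 0 of 82 members were called by edgeR or DESeq2, where edgeR called 2.3% of all tested genes, and 8 members were at an unadjusted p below 0.05, all of them higher (17.6% of all tested genes in either direction). Of the 82 members 73 were above 0 (49.1% of all tested genes), with a median log2 fold change of 0.15 against 0.06 for genes of like length and -0.01 for all tested genes. Groups did not overlap for 20 members that were higher and for 1 that was lower, where this held for 10.3% and 12.2% of all tested genes. The largest value above 0 was that of Rpl22l1 (0.49 ± 0.25, adjusted p = 0.335). With the gene length offsets 1 member was called higher, as were 0.899% of all tested genes. In that fit 67 of 82 members were above 0, with a median of 0.10 against 0.004 for genes of like length. Rpl7l1 had the lowest value at -0.19 (adjusted p = 0.361). The ratio of Rpl7l1 to Rpl7 was 0.0507 to 0.0565 in WTSHAM and 0.0409 to 0.0425 in WTCKD (exact two-sided permutation p = 0.1, adjusted p = 0.333), and 0.0455 to 0.0491 in WTCKD + RNLS. That of Rps27l to Rps27 was 0.0543 to 0.0566 in WTSHAM and 0.0444 to 0.0528 in WTCKD (exact two-sided permutation p = 0.1, adjusted p = 0.333). Neither ratio was adjusted for length.

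RNLS overexpression in wild-type CKD hearts left the members spread around 0. Compared to WTCKD, 0 of 82 members were called in WTCKD + RNLS by edgeR or DESeq2, where edgeR called 4.47% of all tested genes, and 1 was at an unadjusted p below 0.05 (20.2% of all tested genes). The median log2 fold change was 0.01, with 47 members above and 35 below 0 (52.2% of all tested genes were above). No member had groups that did not overlap, against 10.4% of all tested genes higher and 10.8% lower without overlap. That value rested on WTCKD + RNLS replicate 2. Without it the median was -0.14 and 1 member was called lower. The member at an unadjusted p below 0.05 was Rps2, named for this, with 497, 783 and 560 CPM against 543, 461 and 486 CPM in WTCKD (log2 fold change 0.30 ± 0.13, adjusted p = 0.208, and 0.07 without replicate 2).

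No member passed the test between the genotypes. In KOCKD compared to WTCKD, 81 of 82 members were above 0 with a median log2 fold change of 0.17, against 0.12 for genes of like length, 0 were called by edgeR or DESeq2 (0.0% of all tested genes in edgeR), and 19 were at an unadjusted p below 0.05 (10.1% of all tested genes). Above 0 lay 49.2% of all tested genes. The groups did not overlap for 28 members, all higher, as for 9.84% of all tested genes, and the study's own threshold called 1 member higher (1.94%). Rpl10 had the smallest p (0.29 ± 0.09, adjusted p = 0.444) and Rps15a the largest value (0.33 ± 0.11, adjusted p = 0.444), while Rpl3l was the member below 0 (-0.09). With the gene length offsets the median was -0.004 and 39 members were above 0. This comparison shares the KOCKD libraries with the comparison of KOCKD + RNLS to KOCKD, and shares the WTCKD libraries with both wild-type comparisons, so that the values side by side are not independent of each other.

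The effect of RNLS in knockout hearts was also tested directly against that in wild-type hearts. All 82 members had a lower estimate in the knockout, with a median difference of -0.42 on the log2 scale against -0.21 for genes of like length, where 48.5% of all tested genes were below 0, and 70 were at an unadjusted p below 0.05 (17.6% of all tested genes in either direction). None was called by edgeR (0.0% of all tested genes), with the lowest adjusted p of a member at 0.111. DESeq2 called 26, all lower, where it called 1.8% of all tested genes lower, and the study's own threshold called 66 (8.43%). Without WTCKD + RNLS replicate 2 the median difference was -0.27, and with the gene length offsets it was -0.08.

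**Figure D5:**
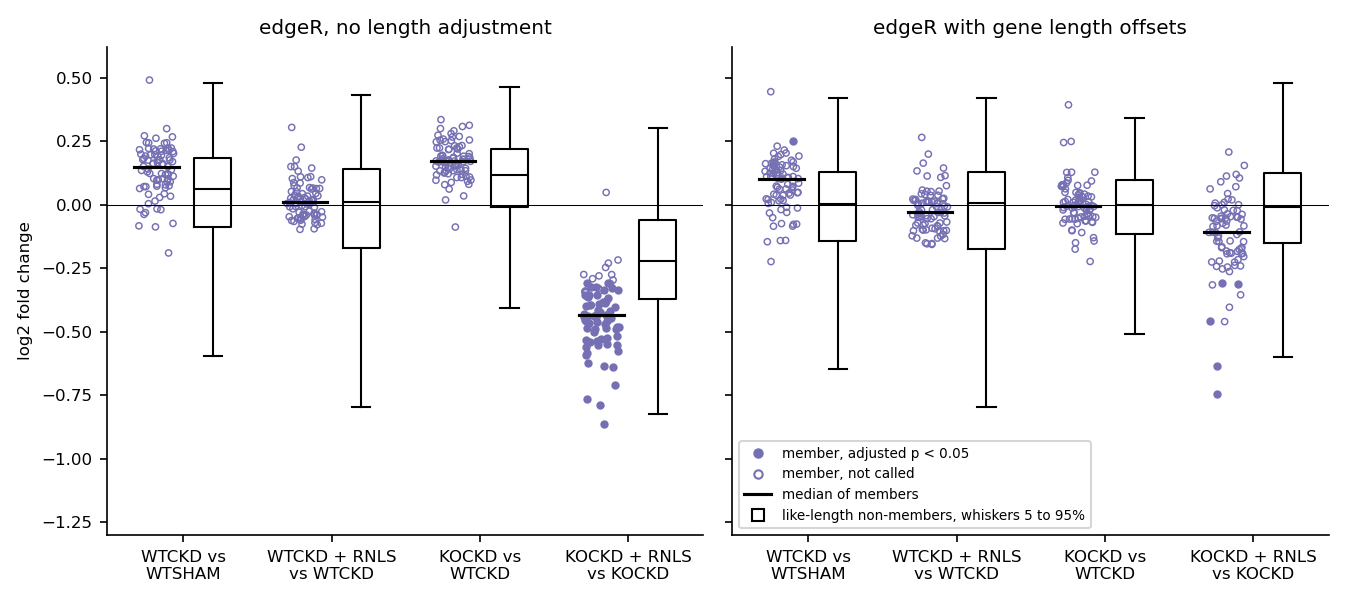
Log2 fold changes of the 82 tested members (points, filled where adjusted p is below 0.05, with a line at the median) beside non-member genes of like implied length (box with quartiles and median, whiskers at the 5th and 95th percentile) in 4 comparisons, without and with gene length offsets. In KOCKD + RNLS compared to KOCKD, members lie at a median of -0.43 without offsets and at -0.11 with them, and the medians of the other 3 comparisons lie between -0.03 and 0.17.

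Other parts of the translation machinery were compared in KOCKD + RNLS and KOCKD. For this comparison, the list and marker counts below stand against 7.04% of all tested genes called lower and 16.1% called in either direction. With the gene length offsets these shares were 2.7% and 5.45%. Among ribosomal genes whose symbols lie outside the set, those called lower included Fau, made as a fusion with a ubiquitin-like protein (-0.49, adjusted p = 0.00459), Rpl36al (-0.41, adjusted p = 0.0279) and the scaffold protein Rack1 (-0.40, adjusted p = 0.00844), and none of these was called with the gene length offsets. Of 20 translation factors and other mRNAs known for a TOP tract, 7 were lower and 1 higher, with a median of -0.21. With the gene length offsets 1 was lower and none higher, with a median of -0.03. Eef1b2, an elongation factor, fell by 0.42 (adjusted p = 0.00796) and Tpt1 by 0.41 (adjusted p = 0.0129), and Naca, of the nascent polypeptide-associated complex, rose by 0.41 (adjusted p = 0.00575). With the offsets Eef1b2 kept its call (-0.27, adjusted p = 0.0438), and Tpt1 (-0.14, adjusted p = 0.172) and Naca (0.16, adjusted p = 0.156) lost theirs. Of 25 other initiation factors 5 were lower and 2 higher (median -0.10), with Eif1 at -0.35 (adjusted p = 0.0139) and the scaffold Eif4g1 at 0.34 (adjusted p = 0.0129). With the offsets none was lower and 2 were higher (median -0.03), and neither Eif1 (-0.11, adjusted p = 0.372) nor Eif4g1 (0.21, adjusted p = 0.133) was called. Of 46 ribosome biogenesis factors 4 were lower and 1 higher (median -0.09), the largest change being that of Rsl24d1, a late assembly factor of the large subunit, at -0.81 (adjusted p = 0.00296), which was also called with the offsets (-0.61, adjusted p = 0.0155), where 3 of the 46 were lower and none higher (median -0.05). Without the offsets, the number of these factors called lower was near the share over all tested genes.

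Of 15 genes of mTORC1, S6 kinase and LARP proteins 5 were higher, 1 was lower and 9 were not called, with a median of 0.21 (0.05 with the offsets, with 8 above and 7 below 0). Deptor, an inhibitor of mTOR, rose by 0.75 (adjusted p = 0.0056), Eef2k, which inhibits elongation, by 0.61 (adjusted p = 0.0032) and Larp4 by 0.61 (adjusted p = 0.00166). These are long genes, with a median implied length of 6930 bases, and these 3 were the ones called with the offsets (0.50, 0.43 and 0.41). Lists of other complexes with short genes also held called members, at lower shares than the 66 of 82 in the fit without offsets. Of 78 mitochondrial ribosomal protein genes 23 were lower (median -0.31), of 103 respiratory chain genes 56 (median -0.35) and of 38 proteasome subunits 13 (median -0.27), and none of the 3 lists had a gene called higher. The lowest values were those of Mrpl55 (-0.82, adjusted p = 0.00301), Atp5e of ATP synthase (-0.67, adjusted p = 0.00228) and Psmb6 of the proteasome core (-0.56, adjusted p = 0.00613). With the offsets 7, 1 and 1 genes of these lists were called lower, and the medians were -0.08, -0.03 and -0.05. In that fit 5 of 82 members were called lower, with a median of -0.11. The share called was then larger in the mitochondrial ribosomal list than among the members. In the other 3 pairwise comparisons these 8 lists together had 2 proteasome subunits called lower in WTCKD compared to WTSHAM, and 2 genes lower and 3 higher in WTCKD + RNLS compared to WTCKD.

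Markers of the cell types of the heart were set beside the result for KOCKD + RNLS and KOCKD, and their part in it was not tested. The 10 cardiomyocyte markers, all detected, summed to 113287 to 116013 CPM in KOCKD + RNLS and 100531 to 107400 CPM in KOCKD, with 3 called higher. Of these 10 markers, however, 4 were above and 6 below 0 on the log2 scale, with a median of -0.06. Fibroblast markers summed to 2207 to 2518 and 2172 to 2983 CPM (3 of 10 lower, among them Col3a1 at -1.58 and Col1a1 at -1.10), endothelial markers to 2088 to 2137 and 2227 to 2670 CPM (2 of 10 lower, 1 higher), mural markers to 1726 to 1938 and 1564 to 1782 CPM (1 of 9 called higher, with 4 above and 5 below 0) and macrophage markers to 297 to 389 and 397 to 478 CPM (2 of 10 lower). Atrial markers were uneven within groups, at 284 to 452 and 308 to 2825 CPM (3 of 7 lower), the called genes being Sln, Myl7 and Myl4. Erythrocyte markers (73.8 to 293 and 51.1 to 375 CPM), lymphocyte markers (2.44 to 3.56 and 1.66 to 5.32 CPM), adipocyte markers (0.0 to 9.51 and 0.0 to 19.0 CPM) and the 3 tested skeletal muscle markers (3776 to 4219 and 3391 to 4555 CPM) had no called gene. With the gene length offsets 1 cardiomyocyte gene was higher (Myh6, 0.36, adjusted p = 0.00919), while Ttn went from 0.59 to 0.11 and Ryr2 from 0.34 to -0.01. In that fit 2 fibroblast, 1 endothelial, 1 atrial and 0 macrophage markers were lower, and of the endothelial and mural markers 0 and 1 were higher. Lep was at 0 in every KOCKD + RNLS library, as were Myh1, Myh2 and Myh4. These zeros were not particular to that group. Myh4 was also at 0 in every KOCKD and WTCKD library and Lep in every WTCKD library. Myh1 and Myh2 were at 0 in every WTCKD + RNLS library, and Myh2 in every WTSHAM library.

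Within groups the members varied together. The median correlation between the deviations of 2 members from their group means, over the 15 libraries, was 0.85, and 80 of 82 members had a correlation of 0.5 or more with the median of the others. This is a description, over libraries whose scaling and length slope act on all members at once, and the same values for other genes are not given here. The 2 exceptions were Rps27a (0.21) and Rps18 (0.38). Rps27a was high in single libraries, at 105 CPM in WTSHAM replicate 3 against 80.6 and 71.2 CPM in the other two, and at 118 CPM in WTCKD + RNLS replicate 1 against 96.7 and 70.9 CPM. Of the group means, that of KOCKD was the highest for 76 of 82 members and that of KOCKD + RNLS the lowest for 71. The share of all tested genes with this order is not given here. Genes of like length had the same groups at the ends. The group mean of their median deviation in log2 CPM was highest in KOCKD (0.13) and lowest in KOCKD + RNLS (-0.09).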

How the data were processed

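Total heart RNA of 15 mice was sequenced after poly(A) selection with a stranded kit. The authors trimmed reads with Trimmomatic, aligned them with HISAT2 and deposited raw counts per gene from HTSeq and FPKM from Cufflinks. Their supplement and processing notes name different genome builds, the strand option of counting is not given in the sources used here, and gene coordinates are therefore not given except for RefSeq windows. The deposited counts gave whole numbers with 10480788 to 13424078 reads per library. Implied length (counts divided by FPKM and library total) was constant for a gene.

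Counts were fitted with edgeR 4.0.16 (R 4.3.3; TMM, filterByExpr with a minimum count of 10, glmQLFTest on group over all 15 libraries), with Benjamini-Hochberg adjustment over 13021 genes and calls below 0.05. All adjusted p-values of genes come from this test unless DESeq2 1.42.0 is named. Positive log2 fold changes are higher in the first-named group. CPM used TMM library sizes. For the length offsets, a lowess trend (span 0.3) of each library on log2 length, estimated on genes outside the set, entered the fit. Lists were described by counts and medians, with no test over a list. Alternatives were RLE factors, TMM without the members, no filter, DESeq2, a replicate block, 6 libraries only, length offsets and leaving out each library. The fits were tested on simulated data. The labels do not say that mice with the same number were paired, and p-values measure the spread between these mice.

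The members and lists were chosen with earlier results of these data known. Named genes were the 5 members with the largest called change in each direction per comparison, members fixed by role (paralog pairs, stalk, 5S particle and genes with known disease or regulatory roles), the 3 highest and 3 lowest levels and those at the edge of the count minimum, and up to 3 called genes of largest change per list. Rpl10l and the sequencer model of each library were not analysed here, and the labels give no batch. The paper names alternative sequencer models and read lengths without assigning them to libraries. Whether they differed between groups cannot be told from the sources used here. Results of some genes are not reported here.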

Additional observations from a re-analysis of the deposited data

How the results depend on the processing

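In the comparison of KOCKD + RNLS to KOCKD, 66 members were called with a median log2 fold change of -0.43. RLE factors, TMM without the members, no filter, DESeq2, the replicate block and the study's threshold gave 64, 66, 62, 74, 62 and 70, and the 6 libraries alone 81. Gene length offsets gave 5 (median -0.11) and coding length offsets, added after seeing the data, 19 (median -0.22). Leaving out 1 library gave 27 to 64 (median -0.50 to -0.38), and with gene length offsets as well, 2 to 4. Of all tested genes 7.04% were called lower without offsets, 8.08% by DESeq2, 10.1% at the study's threshold, 2.7% with gene length offsets and 3.12% with coding length offsets. These shares are not given for the other alternatives. With the offsets Rplp0, Rpl38 and Rpl41 turned from below 0 to 0.0086, 0.019 and 0.10 (none called), and Rpl3l was between -0.0082 (without KOCKD replicate 1) and 0.11 without 1 library. Relative to genes of like length, whose median implied length was 1595 bases against 827 for the tested members, the members' median was lower by 0.21. Against genes over the whole length range of the members (median 2769 bases) it was lower by 0.34. Within each length class but the longest the gap was smaller than 0.21, and the cause of these shifts was not tested.

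In WTCKD compared to WTSHAM the gene length offsets gave 1 called member in place of 0. In WTCKD + RNLS compared to WTCKD, leaving out 1 library gave 0 to 1 called members and medians of -0.14 to 0.086. In KOCKD compared to WTCKD the gene length offsets moved the median from 0.17 to -0.0041, and the study's threshold called 1. For the difference between the RNLS effects DESeq2 called 26 in place of 0, the study's threshold 66, and leaving out 1 library 0 to 1. The median of -0.42 moved to -0.083 with gene length offsets, to -0.20 with coding length offsets, and to between -0.50 and -0.27 without 1 library. The mean member share in KOCKD + RNLS was 1.56% of all counted reads and 1.58% relative to reads on tested genes outside the set. Same-numbered mice correlated at 0.03 to 0.08 in KOCKD + RNLS and KOCKD, where differently numbered mice correlated at -0.08 to 0.01. Elsewhere same-numbered mice correlated at -0.36 to 0.23 and differently numbered mice at -0.33 to 0.39. Such correlations between single mice cannot decide whether the numbers pair them. The replicate block changed no other call count of a comparison by over 1.5 times.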
